A study of Mus musculus with 24 samples.

Results

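Polyamine metabolism was followed in mouse liver through 7 genes chosen by name, Odc1, Amd1, Srm, Sms, Oaz1, Sat1 and Smox, each matched to 1 row of a table of read counts for 22355 genes. All 7 passed the filter on low counts, which kept 11508 genes. The mice were diet-induced obese (DIO) and had been injected with IUB288, an agonist of the glucagon receptor known by its code name, or with vehicle for 4 d. There were 8 livers taken 4 h after the last IUB288 injection, 8 taken 22 h after the last IUB288 injection and 8 taken 22 h after the last vehicle injection, which served as the only controls. The 4 h livers therefore differed from the vehicle livers in treatment and in the time since the last injection, and these cannot be told apart. Both comparisons with vehicle share the same 8 vehicle livers. The strain, age, sex and diet details of the mice are not given in the sources used here. Levels are RNA only, as counts per M counts of the TMM-scaled library (CPM). A gene was called higher or lower when its adjusted p in limma-voom, over all genes tested, was under 0.05. The library of vehicle replicate 1 stood apart from the rest, with Ucp1, a marker of brown fat, at 1388 CPM. Values of the members against vehicle and the changed calls of the pathway lists are given without it. Changed calls of liver cell markers are given for the comparisons with vehicle only.

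Polyamines are small positively charged molecules that bind nucleic acids and are needed for growth and translation. Ornithine decarboxylase, encoded by Odc1, makes putrescine from ornithine. S-adenosylmethionine decarboxylase, encoded by Amd1, supplies the aminopropyl groups that spermidine synthase (Srm) and spermine synthase (Sms) add in turn. Antizyme, encoded by Oaz1, is made when polyamines are plentiful and sends ornithine decarboxylase to the proteasome. Spermidine/spermine acetyltransferase (Sat1) starts the breakdown and export of polyamines, and spermine oxidase (Smox) turns spermine back into spermidine. In rat liver, ornithine decarboxylase activity is known to rise after glucagon.

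The upstream sequences of Odc1, Amd1 and Oaz1 are shown because these 3 genes changed between the times, as given below. They come from RefSeq, build GRCm38.p6, are read 5′ to 3′ on the gene's strand and stop before the first annotated base of the gene. Capitals mark the letters TGACG or their reverse complement CGTCA, the half-site of the cAMP response element. The windows are chr12:17544623-17544807 on the plus strand for Odc1, chr10:40302189-40302438 on the minus strand for Amd1 and chr10:80826406-80826655 on the plus strand for Oaz1.
Odc1: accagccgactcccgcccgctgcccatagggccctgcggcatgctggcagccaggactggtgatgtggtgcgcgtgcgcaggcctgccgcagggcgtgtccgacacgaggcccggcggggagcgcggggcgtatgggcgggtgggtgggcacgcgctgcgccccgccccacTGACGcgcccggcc
Amd1: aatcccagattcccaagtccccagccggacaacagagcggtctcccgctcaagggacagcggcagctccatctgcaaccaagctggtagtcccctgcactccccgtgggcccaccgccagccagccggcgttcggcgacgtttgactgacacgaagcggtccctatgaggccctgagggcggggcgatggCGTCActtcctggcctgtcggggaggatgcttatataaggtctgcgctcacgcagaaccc
Oaz1: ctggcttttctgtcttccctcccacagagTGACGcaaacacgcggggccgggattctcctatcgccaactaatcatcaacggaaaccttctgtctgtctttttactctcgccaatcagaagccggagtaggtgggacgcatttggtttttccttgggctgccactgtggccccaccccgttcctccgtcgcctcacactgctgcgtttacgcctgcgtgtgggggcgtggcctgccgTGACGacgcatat
The half-site lay 79 to 75 bases before the Odc1 start listed in the RefSeq promoter table, 60 to 56 bases before the Amd1 start on the reverse strand, and at 221 to 217 and 13 to 9 bases before the Oaz1 start. For Odc1 the listed start follows base 17544872, past the first annotated base of the gene at 17544808, so the sequence shown ends short of it. Over 250 bases before to 50 bases after the start, 20.8% of 32851 RefSeq windows held a half-site on either strand. The windows of Sms, Sat1 and Smox held none. The full element TGACGTCA, which contains the half-site, was in 1.79% of the windows and in none of the windows of Odc1, Amd1, Oaz1, Sms, Sat1 and Smox. The E-box CACGTG, the letters to which MYC and MAX bind, was in 7.15% of all windows and once in those 6 genes, before Sms. These matches are letters in a window and not measured sites, and the rest of each gene, its introns included, was not searched.

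At 4 h after the last injection, 5 of the 7 genes were higher in IUB288 livers than in vehicle livers and none was lower. They were Odc1, Amd1, Srm, Sat1 and Smox. At that time 44.2% of all genes tested were called, 21.7% higher and 22.5% lower. The median log2 fold change was 0.43 over the 7 genes and -0.07 over all genes tested. At 22 h, Oaz1, Amd1 and Sat1 were higher and the other 4 were not called, against 36.8% of all genes called, 17.6% higher and 19.2% lower. The median log2 fold change was then 0.25 over the 7 genes and -0.02 over all genes. Between the IUB288 livers, Odc1 and Amd1 were lower and Oaz1 was higher at 22 h than at 4 h, 3 of 7, against 29.3% of all genes. In that comparison the calls over all genes, 14.3% higher and 15% lower, moved with the scaling, from 1644 higher and 1723 lower with TMM to 2307 higher and 1171 lower with upper-quartile scaling, while the 3 calls among the 7 genes stayed 1 higher and 2 lower.

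**Figure D1:**
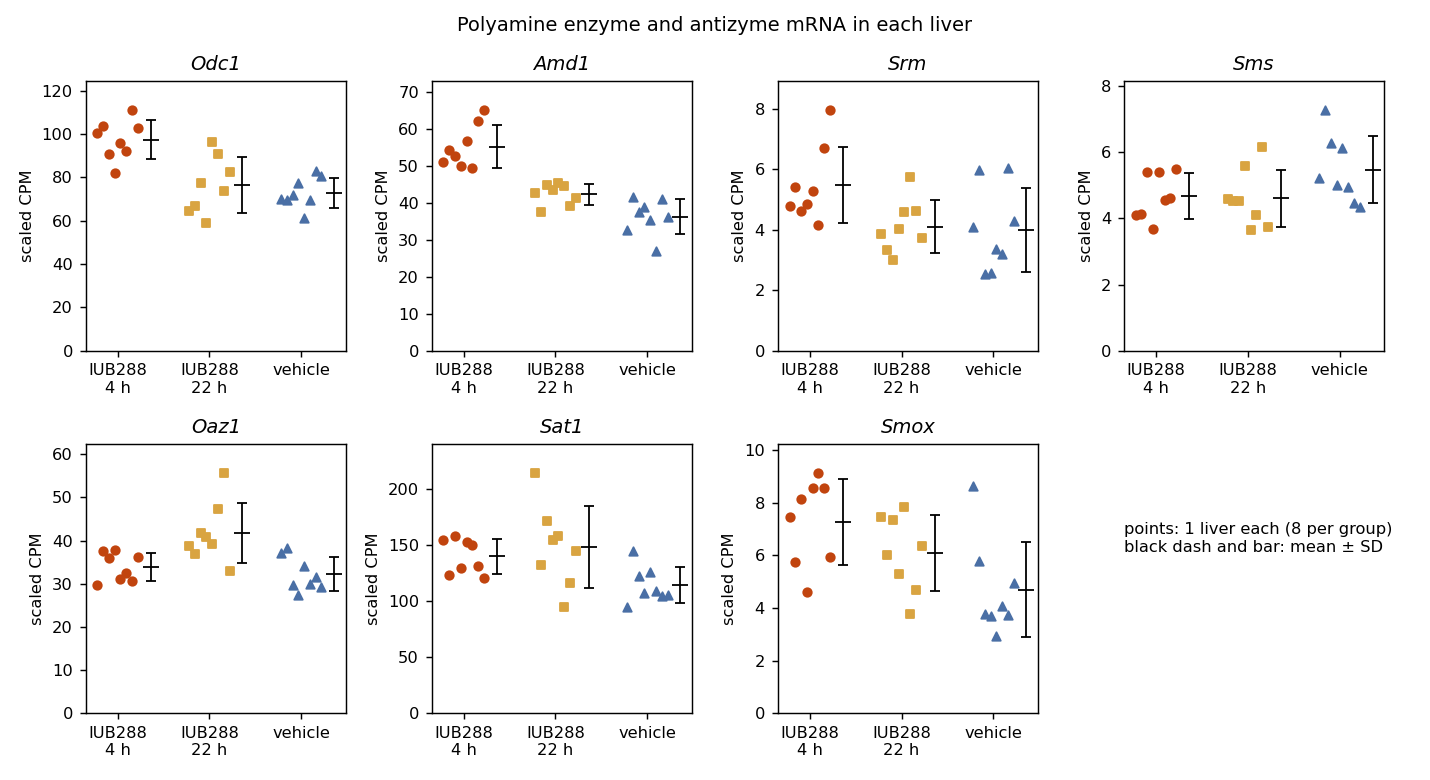
Scaled CPM of the 7 genes in each liver, with 8 livers per group (points) and the mean ± SD (black dash and bar), for IUB288 4 h, IUB288 22 h and vehicle, each axis starting at 0. The 4 h points of Amd1 all lie above the 22 h and vehicle points, and the 22 h points of Oaz1 reach 55.7 CPM, above every point of the other groups.

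**Figure D2:**
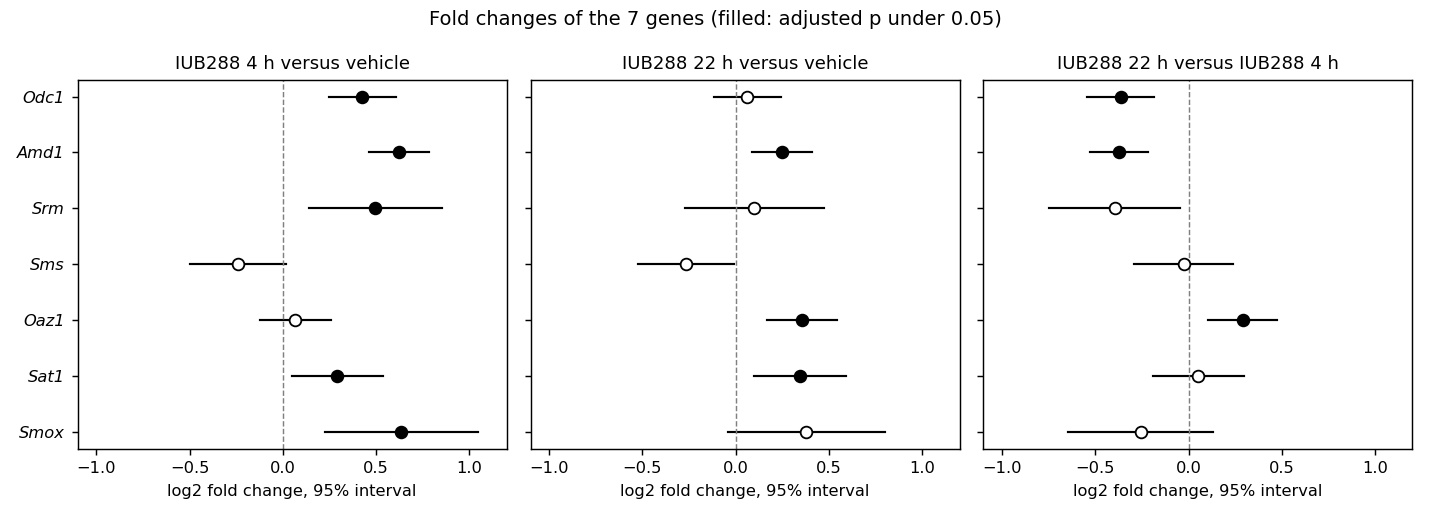
Log2 fold changes of the 7 genes with 95% confidence intervals in the 3 comparisons, filled where the adjusted p was under 0.05. Odc1 and Amd1 lie right of 0 at 4 h and left of 0 between 22 h and 4 h, where Oaz1 lies right of 0.

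Odc1, on chromosome 12 from 17544808 to 17551502, was higher at 4 h and close to vehicle at 22 h. Its lowest, median and highest levels were 82.2, 98.3 and 111.2 CPM in 4 h livers, 59.1, 75.7 and 96.4 CPM in 22 h livers, and 61.4, 71.0 and 83.0 CPM in vehicle livers. Of the 4 h livers, 7 of 8 lay above the highest vehicle liver, while the 22 h livers spread over the vehicle range and beyond it on both sides. The log2 fold change was 0.43 ± 0.09 (SE, n = 8 each) at 4 h, a 1.34-fold higher level with an adjusted p of 3.05e-04. At 22 h it was 0.06 with a 95% interval of -0.12 to 0.24 (adjusted p = 0.613). At 22 h Odc1 was 1.29-fold lower than at 4 h, a log2 fold change of -0.36 ± 0.09 (adjusted p = 0.00212), with all 8 of the 22 h livers below the 4 h mean.

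Amd1, on chromosome 10 from 40287458 to 40302188, was higher at both times and more so at 4 h. Its levels were 49.5, 53.5 and 65.1 CPM (lowest, median, highest) in 4 h livers, 37.6, 43 and 45.4 CPM in 22 h livers, and 27.1, 36.8 and 41.7 CPM in vehicle livers. The 4 h livers overlapped neither of the other groups, and 5 of the 8 livers at 22 h lay above the highest vehicle liver. The level was 1.54-fold higher than vehicle at 4 h (log2 fold change 0.62 ± 0.08, adjusted p = 3.44e-07) and 1.19-fold higher at 22 h (0.25 ± 0.08, adjusted p = 0.0148). Between 22 h and 4 h the log2 fold change was -0.37 ± 0.08 (adjusted p = 0.00038).

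Amd1 has a near-identical copy, Amd2, and its count is uncertain for that reason. Of the 50-base windows of Amd1 transcripts in GENCODE M21, 76.7% also occur in Amd2 transcripts. Amd1 held 94.0%, 93.8% and 93.7% of the summed CPM of both genes, as medians over 4 h, 22 h and vehicle livers. With the counts of both genes added, an alternative chosen after the data were seen, the log2 fold change was 0.61 at 4 h, 0.24 at 22 h and -0.37 between 22 h and 4 h, with adjusted p of 6.55e-07, 0.02 and 0.000564.

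Srm, spermidine synthase on chromosome 4 from 148591513 to 148594619, was higher at 4 h. Its levels were 4.16, 5.06 and 7.96 CPM in 4 h livers, 2.99, 3.93 and 5.74 CPM in 22 h livers, and 2.53, 3.73 and 6.05 CPM in vehicle livers. All 3 groups overlapped, and 2 of the 4 h livers lay above the highest vehicle liver. At 4 h the log2 fold change was 0.50 ± 0.17 (adjusted p = 0.0219), and leaving out 4 h replicate 8 (0.42) or vehicle replicate 4 (0.42, adjusted p = 0.0502) ended the call. At 22 h it was 0.10 with a 95% interval of -0.27 to 0.47 (adjusted p = 0.698). Between 22 h and 4 h it was -0.40 with an interval of -0.75 to -0.04 (adjusted p = 0.0852), and without 22 h replicate 6 it was -0.47 and was called (adjusted p = 0.0462).

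Sms, spermine synthase on chromosome X from 157443851 to 157492287, was not called in any of the 3 comparisons. Its levels were 3.68, 4.59 and 5.51 CPM in 4 h livers, 3.64, 4.52 and 6.15 CPM in 22 h livers, and 4.35, 5.13 and 7.28 CPM in vehicle livers. The log2 fold change was -0.24 at 4 h (95% interval -0.50 to 0.02, adjusted p = 0.119) and -0.27 at 22 h (interval -0.52 to -0.01, adjusted p = 0.0958). The groups overlapped, although 3 of the 8 livers at each time lay below the lowest vehicle liver. Without 22 h replicate 7 the 22 h value was -0.33 and was called (adjusted p = 0.0449). The ratio of Srm to Sms CPM had medians of 1.24 at 4 h, 0.794 at 22 h and 0.712 in vehicle livers, with ranges of 0.857 to 1.45, 0.662 to 1.40 and 0.401 to 1.36 that overlapped, and like the ratio of Odc1 to Oaz1 below it is not corrected for length.

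Oaz1, on chromosome 10 from 80826656 to 80829290, was higher at 22 h. Its levels were 29.7, 34.2 and 37.7 CPM in 4 h livers, 33.0, 40.0 and 55.7 CPM in 22 h livers, and 27.4, 30.7 and 38.3 CPM in vehicle livers. At 22 h, 6 of 8 livers lay above the highest vehicle liver, while at 4 h none did. At 22 h the log2 fold change was 0.36 ± 0.09 (1.28-fold, adjusted p = 0.0034). At 4 h it was 0.07 with a 95% interval of -0.12 to 0.26 (adjusted p = 0.587). For 22 h against 4 h it was 0.29 ± 0.09 (adjusted p = 0.0157), with 7 of 8 livers at 22 h above the 4 h mean.

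Over all its GENCODE M21 transcripts, Oaz1 shares 586 of 2911 50-base windows (20.1%) with Oaz1-ps, a copy with its own row in the table. The merged exons used for the level of Oaz1 per length were only 1074 bases, so the share within them can be higher and was not measured. A fit with the counts of Oaz1 and Oaz1-ps added was not run, and the count of Oaz1 is uncertain for that reason. Oaz1-ps averaged 16.7 CPM at 4 h, 18.9 CPM at 22 h and 15.8 CPM in vehicle livers. Its log2 fold change at 22 h was 0.24 ± 0.10 (adjusted p = 0.0594), so it was not called. Oaz2, a second antizyme gene, had log2 fold changes of 0.00 at 4 h and 0.01 at 22 h, and Azin2, an antizyme inhibitor gene with a mean of 0.27 CPM at 4 h, 0.41 CPM at 22 h and 0.26 CPM in vehicle livers, was not called either. The other genes listed with them, Oaz3 and Azin1, were not analysed here.

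The ratio of Odc1 to Oaz1 CPM was used to set both changes side by side in each liver. It was 2.18, 2.85 and 3.64 (lowest, median, highest) at 4 h, 1.33, 1.83 and 2.50 at 22 h, and 1.80, 2.37 and 2.82 in vehicle livers. The ranges of the 3 groups overlapped. The ratio is between RNA levels not corrected for length, and it was given no test of its own.

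**Figure D3:**
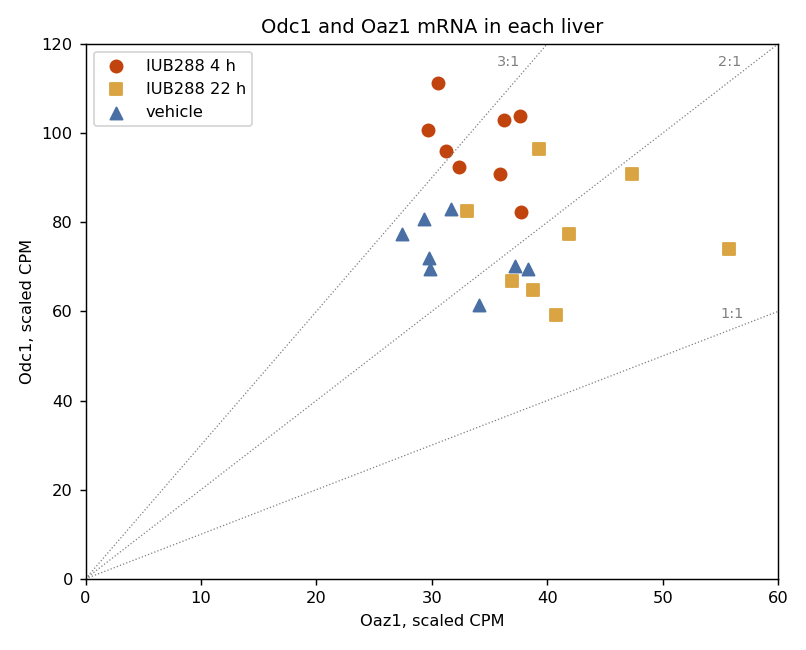
Odc1 against Oaz1 scaled CPM in each of the 24 livers, both axes from 0, with dotted lines at ratios of 1, 2 and 3 to 1. The 4 h livers lie above the 2:1 line, between ratios of 2.18 and 3.64, and the 22 h livers lie lower, between 1.33 and 2.50.

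Sat1, the acetyltransferase gene on chromosome X from 155213126 to 155216449, had the highest level of the 7, also per length. Its levels were 120.3, 140.7 and 158.1 CPM in 4 h livers, 94.9, 149.3 and 214.3 CPM in 22 h livers, and 95.1, 108.3 and 144.9 CPM in vehicle livers. At each time 4 of 8 IUB288 livers lay above the highest vehicle liver, and 1 of the 22 h livers lay below the lowest. The log2 fold change was 0.29 ± 0.12 at 4 h (adjusted p = 0.0483) and 0.34 ± 0.12 at 22 h (adjusted p = 0.0255). The 4 h call was at the threshold, since it was lost in 16 of 24 fits that each left out 1 library. Over all 24 of these fits the adjusted p ran from 0.0224 to 0.0895. The call was also lost with upper-quartile scaling or library totals (adjusted p = 0.141 and 0.167). The 22 h call was lost with library totals (0.32, adjusted p = 0.0731), and without 22 h replicate 1 (0.26, adjusted p = 0.0601) or 22 h replicate 3 (0.31, adjusted p = 0.0516). The 22 h and 4 h livers differed by a log2 fold change of 0.05 with a 95% interval of -0.19 to 0.30 (adjusted p = 0.789).

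Smox, spermine oxidase on chromosome 2 from 131491858 to 131525183, was higher at 4 h. Its levels were 4.63, 7.80 and 9.14 CPM in 4 h livers, 3.76, 6.2 and 7.85 CPM in 22 h livers, and 2.95, 3.92 and 8.62 CPM in vehicle livers. The highest vehicle value was that of replicate 1, and 5.78 CPM came next. The log2 fold change was 0.63 ± 0.20 at 4 h (1.55-fold, adjusted p = 0.0119) and 0.38 at 22 h (95% interval -0.04 to 0.80, adjusted p = 0.154). Without vehicle replicate 1 it was 0.81 at 4 h (adjusted p = 0.000861), and the 22 h value was 0.55 and was called (adjusted p = 0.0236). For 22 h against 4 h it was -0.26 with an interval of -0.65 to 0.13 (adjusted p = 0.337).

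Paox, the oxidase that acts on acetylated polyamines after Sat1, was lower at both times. Its levels were 9.16, 13.1 and 18.4 CPM in 4 h livers, 6.01, 9.21 and 14.7 CPM in 22 h livers, and 15.2, 18.1 and 21.9 CPM in vehicle livers. The 22 h livers all lay below the lowest vehicle liver, and 7 of 8 did at 4 h. Its log2 fold change was -0.52 ± 0.13 at 4 h (adjusted p = 0.00202), -0.95 ± 0.14 at 22 h (adjusted p = 8.26e-06) and -0.44 ± 0.14 between 22 h and 4 h (adjusted p = 0.0239). The other genes of its list, Sat2, Aoc1 and Satl1, were not analysed here.

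Levels of different genes were ranked per length, as CPM per kb of merged exons in GENCODE M21. In 4 h livers the medians ran from 119 for Sat1 over 44.5 for Odc1, 31.8 for Oaz1, 16.7 for Amd1, 3.78 for Srm and 2.52 for Smox to 1.24 CPM per kb for Sms, and no neighbours in this order overlapped, the closest being Smox at 1.49 and Sms at 1.48. In 22 h livers Oaz1 (37.2) stood above Odc1 (34.3), and their livers overlapped, as did those of Srm (2.94) and Smox (2.00) and those of Smox and Sms (1.22). In vehicle livers Odc1 (32.2) and Oaz1 (28.6) overlapped, and so did Srm (2.79), Sms (1.38) and Smox (1.27 CPM per kb). The order of Sat1, then Odc1 and Oaz1, then Amd1, then the other 3 held in each group. These levels depend on how reads that match a copy were counted, which is not given in the sources used here. The shares of 50-base windows that other GENCODE genes also hold were 78.1% for Amd1, 24.3% for Odc1, 21.0% for Oaz1, 17.5% for Sms, 2.72% for Sat1, 2.01% for Srm and 0% for Smox. They are shares of the windows of all transcripts of a gene. For Odc1 and Oaz1 these were 3750 and 2911 windows, against merged exons of 2208 and 1074 bases. The shares within the merged exons can therefore be higher and were not measured.

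Of 9 tested genes listed under ornithine and arginine supply, 6 were higher and none lower at 4 h, and 5 were higher and 1 lower at 22 h. The list also holds genes that move or use ornithine, such as Slc25a15, Oat and Otc, and ornithine itself was not measured. Over all genes tested, 21.7% were higher and 22.5% lower at 4 h, and 17.6% were higher and 19.2% lower at 22 h. The median log2 fold change of the list was 1.03 at 4 h and 0.62 at 22 h, where the middle gene was Azin2, which also stands in this list as a relative of ornithine decarboxylase and was not called (adjusted p = 0.318). Slc25a15, the mitochondrial ornithine carrier, averaged 1677 ± 346 CPM at 4 h, 691 ± 126 CPM at 22 h and 394 ± 40.5 CPM in vehicle livers (SD, n = 8 each). It was 4.19-fold higher than vehicle at 4 h (adjusted p = 7.02e-13) and 1.73-fold higher at 22 h (adjusted p = 8.95e-06). Slc7a2, a carrier of arginine and ornithine, was 5.79-fold higher at 4 h (adjusted p = 8.03e-12) and 3.51-fold higher at 22 h (adjusted p = 7.93e-09). Slc3a2, the heavy chain of several amino acid exchangers, was 3.26-fold higher at 4 h (adjusted p = 6.84e-12), and Oat, ornithine aminotransferase, was 4.18-fold higher at 22 h (adjusted p = 2.04e-07). The gene that was lower at 22 h was Arg2, the mitochondrial arginase, at 0.21 CPM against 0.56 CPM in vehicle livers on average. Arg1, the other arginase gene of the list, averaged 2663 CPM at 4 h, 2323 CPM at 22 h and 1355 CPM in vehicle livers. It was 1.94-fold higher than vehicle at 4 h (adjusted p = 1.22e-06) and 1.7-fold higher at 22 h (adjusted p = 5.65e-05). Both arginase genes are named after their values were seen. Between 22 h and 4 h, 5 of the 9 were lower and none higher, against 15% lower and 14.3% higher over all genes. Among the 5 were Slc3a2 (2.44-fold lower, adjusted p = 1.14e-09), Slc25a15 (2.42-fold lower, adjusted p = 7.26e-09) and Slc7a1, an arginine carrier (2.32-fold lower, adjusted p = 0.00136).

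S-adenosylmethionine, the substrate of Amd1, had a mixed set of genes. Of 7 tested, 2 were higher and 2 lower at 4 h, and 2 were higher and 1 lower at 22 h, with median log2 fold changes of -0.12 and -0.11. The shares called over all genes were 44.2% at 4 h and 36.8% at 22 h, so that these counts do not stand out from them. Mat1a, the liver enzyme that makes S-adenosylmethionine, averaged 7432 ± 2211 CPM at 4 h, 7730 ± 1278 CPM at 22 h and 3305 ± 324 CPM in vehicle livers (SD, n = 8 each), which was 2.18-fold higher than vehicle at 4 h (adjusted p = 1.72e-07) and 2.32-fold higher at 22 h (adjusted p = 1.75e-07). Bhmt, which makes methionine from homocysteine with betaine, was 1.91-fold lower at 4 h (adjusted p = 2.29e-06), and Mat2b, a regulatory subunit, was 1.2-fold lower (adjusted p = 0.000207). At 22 h Ahcy, which clears S-adenosylhomocysteine, was 1.65-fold higher (adjusted p = 0.000954), and Mtr, methionine synthase, was 1.35-fold lower (adjusted p = 0.00577). Between 22 h and 4 h, 2 of the 7 were higher and none lower, against 29.3% of all genes called, 14.3% higher and 15% lower. The 2 were Bhmt (1.55-fold, adjusted p = 0.000434) and Mat2b (1.18-fold, adjusted p = 0.000981).

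Genes after the polyamine steps were fewer in the table. Over all genes tested, 44.2% were called at 4 h, 36.8% at 22 h and 29.3% between the times. Both tested genes of the salvage of methylthioadenosine, the by-product of Srm and Sms, changed at 4 h. Kyat3, an aminotransferase, was 1.95-fold higher (adjusted p = 2.71e-06) and Adi1, a dioxygenase of the pathway, was 1.14-fold lower (adjusted p = 0.0205). Kyat3 was also higher at 22 h, 1.37-fold (adjusted p = 0.0105), and was lower at 22 h than at 4 h (1.42-fold, adjusted p = 0.00588). Of the 4 genes of the hypusine step, in which spermidine modifies the translation factor eIF5A, Dohh, the hydroxylase, was higher at 4 h (1.32-fold, adjusted p = 0.0275), and none was called at 22 h or between the times. Without vehicle replicate 1, Dohh was called at 22 h as well (1.33-fold higher, adjusted p = 0.00885), and so was Adi1 (1.11-fold lower, adjusted p = 0.0184).

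Of the genes of polyamine transport, Slc22a3, an organic cation carrier, had 51.7, 72.0 and 95.0 CPM (lowest, median, highest) in 4 h livers, 15.5, 21.2 and 31.1 CPM in 22 h livers, and 10.2, 12.2 and 47.2 CPM in vehicle livers. It did not overlap with vehicle at 4 h and was 4.64-fold higher (adjusted p = 1.53e-08), and at 22 h it was 3.14-fold lower than at 4 h (adjusted p = 7.14e-07). Against vehicle at 22 h its log2 fold change was 0.57 ± 0.24 (adjusted p = 0.0726), and without vehicle replicate 1 it was 0.88 and was called (adjusted p = 0.00022). Atp13a3, a transport ATPase tied to polyamine uptake, was 1.26-fold higher at 4 h (adjusted p = 0.00033) and 1.17-fold higher at 22 h (adjusted p = 0.0129).

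The MYC network was listed because Odc1 is a known target gene of MYC. Of 9 tested genes, 4 were higher and 2 lower at 4 h, 1 was higher and 2 lower at 22 h, and 4 were lower and none higher at 22 h than at 4 h. The shares called over all genes were 44.2%, 36.8% and 29.3%, so that the count at 22 h was near the background. Myc had 19.3, 32.0 and 72.3 CPM (lowest, median, highest) in 4 h livers, 7.79, 18.3 and 29.1 CPM in 22 h livers, and 5.51, 7.78 and 17.0 CPM in vehicle livers. All 4 h livers lay above all vehicle livers, and the log2 fold change was 1.88 ± 0.33 (adjusted p = 4.31e-05). At 22 h it was 0.86 ± 0.35 (adjusted p = 0.0561), which was not called, but without vehicle replicate 1 it was 1.03 and was called (adjusted p = 0.0302). Between 22 h and 4 h it was -1.02 ± 0.28 (adjusted p = 0.00726). Max, the partner of MYC, was 1.31-fold higher at 4 h (adjusted p = 3.76e-05) and 1.38-fold lower at 22 h than at 4 h (adjusted p = 5.61e-06). Mnt, which represses at the same sites, was 1.4-fold higher than vehicle at 4 h (adjusted p = 0.000393) and not called at 22 h (adjusted p = 0.642). It was 1.33-fold lower at 22 h than at 4 h (adjusted p = 0.00245). Mycn, a relative of Myc, was lower at both times, averaging 0.46 CPM at 4 h, 0.51 CPM at 22 h and 1.86 CPM in vehicle livers (adjusted p = 5.52e-05 and 0.000446). At 22 h Mlxip, a partner of MLX, was 1.5-fold lower (adjusted p = 0.000845) and Mxi1, a partner of MAX that represses, was 1.14-fold higher (adjusted p = 0.0187).

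**Figure D4:**
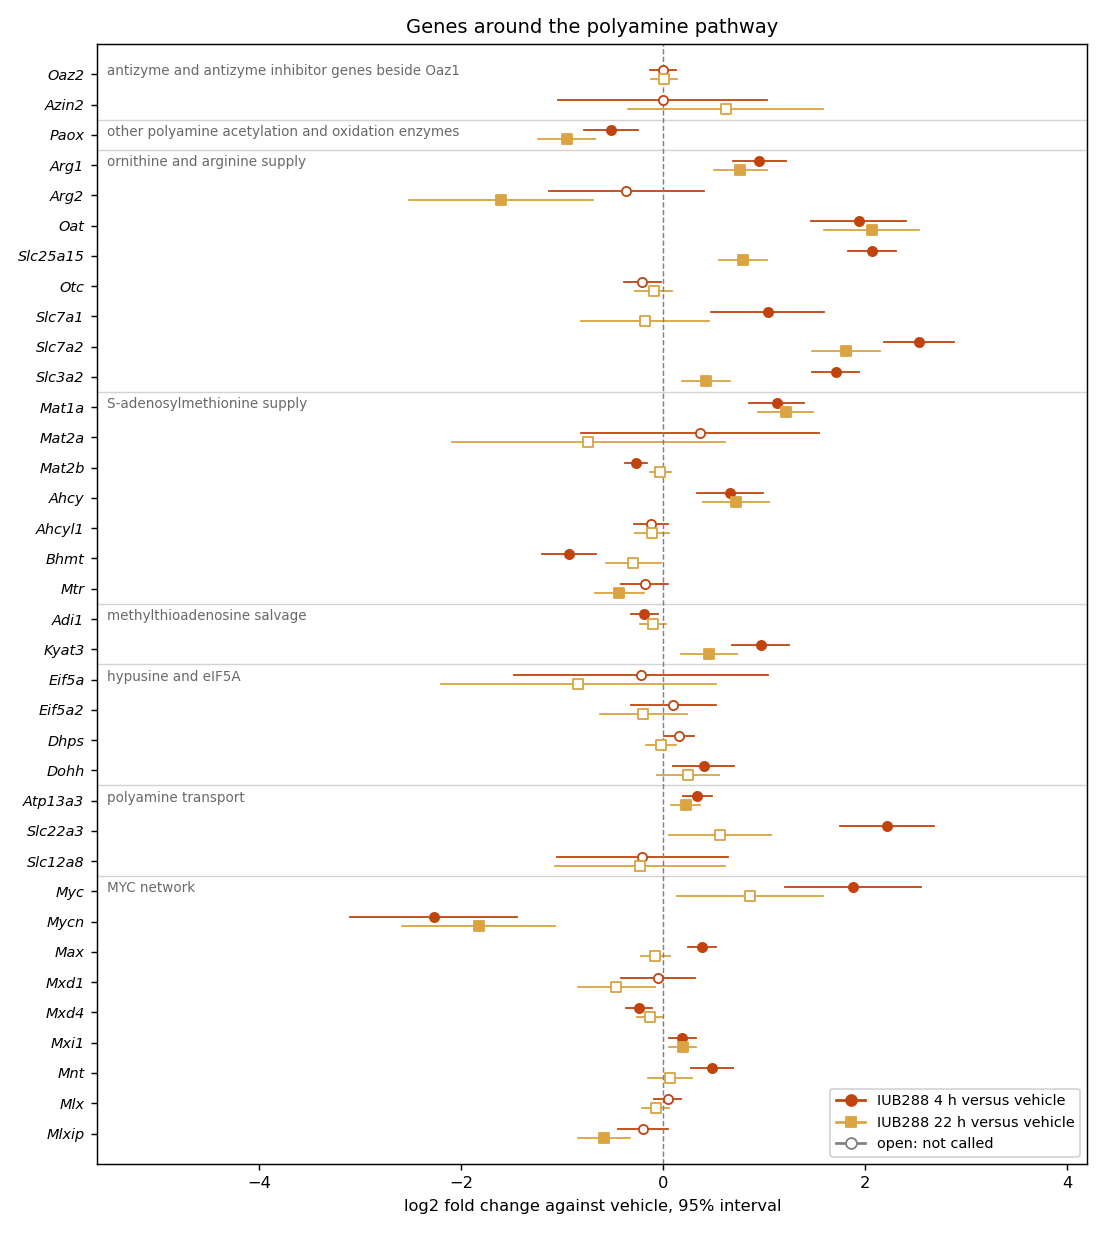
Log2 fold changes against vehicle with 95% confidence intervals for tested genes around the polyamine pathway, grouped by list, at 4 h (circles) and 22 h (squares), filled where called. Slc25a15, Slc3a2, Slc22a3 and Myc lie further right at 4 h than at 22 h, and Paox lies left of 0 at both times.

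The genes with the pattern closest to a member over the 24 livers were looked for where that member changed by at least 0.58 on the log2 scale, which held for Amd1 and Smox. Likeness was the root mean square difference of log2 CPM after each gene was centred on its own mean, over 8952 genes with a mean of at least 1 CPM. Closest to Amd1 were Fam50a (0.12), Ywhaz (0.12) and Tnfaip1 (0.13), against a median of 0.43 over all genes. Closest to Smox were Nfkb2 (0.25), Slc6a8 (0.28) and Rhoc (0.285), against a median of 0.565. The search included vehicle replicate 1, which had the highest vehicle level of Smox, and was not repeated without it.

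Within groups, the 7 genes were compared pair by pair over livers, after each group's mean had been taken out. None of the 21 pairs passed an adjusted p of 0.05 in a 2-sided permutation test, the smallest being 0.164 for Pearson's r and 0.179 for Spearman's rho, while 5 pairs had an unadjusted Pearson p under 0.05. They were Odc1 with Amd1 (r = 0.409, permutation p = 0.0286), Amd1 with Srm (0.499, 0.0307), Odc1 with Sms (-0.462, 0.0345), Oaz1 with Srm (0.435, 0.0373) and Sat1 with Smox. The last pair had the largest Pearson p of the 5 and was not chosen in advance. Sat1 and Smox, the breakdown pair, had r = 0.417 (permutation p = 0.044) and rho = 0.503 (permutation p = 0.0195) over 24 livers, and r was 0.224 without the 2 livers farthest from the median of Sat1. Without vehicle replicate 1 this pair had r = 0.672 and rho = 0.676, with adjusted permutation p of 0.0155 and 0.03, and r = 0.566 without the 2 farthest livers, so it was called without that library. With library totals in place of TMM and all 24 livers, r was 0.559 and rho 0.632, with adjusted permutation p of 0.105 and 0.0414.

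Libraries held 24.6 to 35.2 M counts at 4 h, 25.8 to 35.2 M at 22 h and 14 to 44.1 M in vehicle livers. All 8 hepatocyte markers were in the table, and their summed level was 69370 to 95300 CPM at 4 h, 56460 to 86770 CPM at 22 h and 76560 to 120900 CPM in vehicle livers. Most of that sum was Alb, at a mean of 53840 CPM at 4 h, 46980 CPM at 22 h and 70010 CPM in vehicle livers. Alb, Apoa1, Ttr and Cyp2e1 were lower at both times, Cps1, Hnf4a and Serpina1a were higher at both, and Apob was not called, all named after their values were seen. Summed over 6 brown fat markers in the table, levels were 86.6 to 142 CPM at 4 h, 14.9 to 133 CPM at 22 h and 33 to 2012 CPM in vehicle livers, or 33 to 64.95 CPM without vehicle replicate 1. Most of that sum in the IUB288 livers was Elovl3, which mouse liver also expresses, at a mean of 98.6 CPM at 4 h, 54.5 CPM at 22 h and 29.5 CPM in vehicle livers, while Ucp1 was at most 0.14 CPM at 4 h and 0.53 CPM at 22 h. The sums over 4 white fat markers were 0.39 to 0.92 CPM at 4 h, 0.31 to 0.53 CPM at 22 h and 1.05 to 543 CPM in vehicle livers, or 1.05 to 7.45 CPM without vehicle replicate 1. The medians in vehicle livers were 3.19 CPM for Cfd, 0.07 CPM for Plin1 and 0 CPM for Adipoq and Lep. Without vehicle replicate 1, Odc1 was at 0.42 and 0.06, Amd1 at 0.60 and 0.23, Srm at 0.52 and 0.12, Sms at -0.25 and -0.28, Oaz1 at 0.10 and 0.39, and Sat1 at 0.26 and 0.31 on the log2 scale at 4 h and 22 h, and the Sat1 call at 4 h was lost (adjusted p = 0.0895). Over all genes and all 24 livers, 21.7% were higher at 4 h and 17.6% at 22 h. Without vehicle replicate 1, called genes numbered 4 of the 7 at each time, all higher. The share over all genes higher in that fit is not given here. Over the fits that each left out 1 library, all genes called numbered 4743 to 5253 at 4 h and 3846 to 4281 at 22 h. With all 24 livers they numbered 5091 and 4237. Among the other pathway genes, Otc was then called lower at 4 h (adjusted p = 0.0164) and Mxd1 lower at 22 h than at 4 h (adjusted p = 0.00074), and both are named after their values were seen.

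Some markers of other cell types differed between the IUB288 and vehicle livers, and their part in the results above was not tested. Over all genes tested in all 24 livers, 22.5% were lower at 4 h and 19.2% at 22 h. The counts of 1 of 7 macrophage markers at 4 h and 2 of 5 cholangiocyte markers, given below, do not stand out from these shares. Of 7 tested endothelial markers, 3 were lower at 4 h and 7 at 22 h, with summed levels of 270 to 324 CPM at 4 h, 117 to 302 CPM at 22 h and 244 to 500 CPM in vehicle livers. Without vehicle replicate 1 the endothelial counts were again 3 and 7, but at 4 h Pecam1 and Cdh5 were no longer called and Stab2 and Lyve1 were. Of 7 stellate cell and fibroblast markers, 4 were lower at 4 h and 6 at 22 h (377 to 643, 206 to 614 and 676 to 1275 CPM at 4 h, 22 h and in vehicle livers). Of 7 macrophage markers, 1 was lower at 4 h and 4 at 22 h (198 to 387, 77.4 to 410 and 227 to 835 CPM). Of 7 lymphocyte markers 3 were lower at 4 h and 4 at 22 h (3.52 to 6.82, 1.68 to 8.52 and 6.12 to 17.2 CPM), and 2 at each time without vehicle replicate 1, when Cd8a at 4 h and Cd3e and Cd3g at 22 h were no longer called. Of 5 cholangiocyte markers 2 were lower at each time (61.2 to 249, 71.8 to 176 and 93.9 to 531 CPM). Of 5 erythroid markers, 4 were lower and 1 higher at each time (181 to 280, 123 to 214 and 212 to 470 CPM). The counts of stellate cell, macrophage, cholangiocyte and erythroid markers lower against vehicle were the same without vehicle replicate 1. No marker in the table was at 0 in all 24 livers. In whole liver, fewer cells of a type and less RNA per cell cannot be told apart.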

How the data were processed

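Read counts per gene were deposited by the authors as whole numbers for 22355 genes in 24 liver libraries, 8 per group. Per the labels' protocols, RNA was prepared with miRNeasy and libraries with KAPA mRNA HyperPrep. The submitters' processing notes name cutadapt, GSNAP and the build GRCm38. No version, counting tool, annotation or strand setting is given in the sources used here. Groups came from the labels.

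A quasi-likelihood test on counts and a second count tool had been planned, but were not run, because the layout of the table was not accepted as counts. The limma-voom test took their place (R 4.3.3, limma 3.58.1). Genes with at least 10 counts in enough libraries and 15 in all were kept, 11508 genes with 99.92% of counts. TMM scaling, trimmed by 30% and 5%, was written out in R. The model held 3 group means with 21 residual and 4.08 prior degrees of freedom, and p-values were adjusted by Benjamini-Hochberg over all genes. The fit was tested on simulated counts. Correlations used 100000 resamples. Within groups, chi-square per degree of freedom was 20.8 to 357 over 84 pairs of libraries, above sampling noise. Replicate numbers did not pair the livers. Positions and upstream sequences are RefSeq GRCm38.p6, matched by Entrez number, and sequences were found for 6 of the 7 genes (not Srm). The members and lists were chosen with earlier results of these data known. Named from each list were at most 3 genes with the smallest p per comparison. Listed genes were counted where tested, and others were not analysed here. One result of the transport list is not reported here. Alternatives were other scalings, filters, library sets, a replicate term and each library left out.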

Additional observations from a re-analysis of the deposited data

Results flagged for a closer look

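For 3 of the 7 genes the IUB288 livers differed between 22 h and 4 h in limma-voom, adjusted over all 11508 genes. Since both times were set against the same vehicle livers, taken at 22 h only, this is also the difference between their 2 fold changes, and no vehicle livers at 4 h were analysed here. The log2 fold change, 22 h against 4 h, was -0.36 for Odc1 (adjusted p = 0.00212, 8 of 8 livers at 22 h below the 4 h mean), -0.37 for Amd1 (adjusted p = 0.00038, 8 of 8 livers) and 0.29 for Oaz1 (adjusted p = 0.0157, 7 of 8 livers above the 4 h mean). Over all genes tested, 29.3% differed between these times. By Dixon's test for a value far from the rest, no liver exceeded the limit in any of the 21 sets of 8 values tested. A liver within that limit could still decide a call. Vehicle replicate 1 had 8.62 CPM of Smox, against 5.78 CPM in the next vehicle liver. Smox at 22 h against vehicle was not called with all livers (log2 fold change 0.38). Without vehicle replicate 1 it was called in limma-voom (0.55, adjusted p = 0.0236).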

How the results depend on the processing

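Odc1, Amd1, Oaz1 and Smox at 4 h kept their direction and side of the threshold under every alternative run, as did Odc1, Amd1 and Oaz1 at 22 h and between the times. For Sat1 at 4 h the value was 0.23 with upper-quartile scaling, 0.24 with library totals, 0.30 with no filter and 0.26 with a filter of at least 1 CPM in 8 libraries, none called, and 0.26 to 0.34 with a library left out. For Sat1 at 22 h it was 0.32 with library totals and 0.34 with only 16 libraries (adjusted p = 0.0557), both not called, and 0.26 to 0.43 with a library left out. Between the times, with a library left out, Sat1 was -0.029 to 0.141, Sms -0.0800 to 0.022 and Srm -0.47 to -0.32. Sms between the times was 0.059 with upper-quartile scaling, 0.0062 with library totals, 0.0012 with no filter and 0.0086 with the 1 CPM filter, turning its sign. With a library left out, Smox at 22 h was 0.27 to 0.55, Sms at 22 h -0.33 to -0.20 and Srm at 4 h 0.42 to 0.60. Members called at 4 h numbered 3 to 5, with 3 without vehicle replicate 4, and 1 pair of genes passed the correlation test without vehicle replicate 1 (Sat1 and Smox), which with library totals passed by rho (adjusted permutation p = 0.0414) and not by r. The cause of these changes was not tested. Same-numbered livers had correlations of -0.22 to 0.13 in their deviations, 2 of 24 pairs over 0.1, so the numbers share only a label. With the replicate number as a block, 5425 genes were called at 4 h, 4388 at 22 h and 3433 between the times, against 5091, 4237 and 3367, and the members called stayed 5, 3 and 3. The planned DESeq2 and quasi-likelihood fits were not run. Srm, Sms and Smox had lowest counts of 65, 62 and 52 reads in a library, which limits their precision.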

Other observations

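Mat2a, the S-adenosylmethionine synthetase gene best known from tissues other than adult liver, and Eif5a, which encodes the protein modified with spermidine, had a wide spread within groups. Mat2a ran from 3.61 to 50.9 CPM at 4 h, 0.93 to 6.47 CPM at 22 h and 1.5 to 50.9 CPM in vehicle livers. Eif5a ran from 2.08 to 35.3 CPM at 4 h, 0.75 to 9.19 CPM at 22 h and 1.28 to 44.2 CPM in vehicle livers. Neither was called in the 3 comparisons, and both were named after their values were seen.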
